A study of Homo sapiens with 12 samples.

Results

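AXL, MERTK and TYRO3 are the 3 receptor tyrosine kinases of the TAM family, and GAS6 is a secreted ligand of all of them. The 4 genes were taken by symbol from a table of 20979 entries, in which each stood on 1 line, and were followed over 12 polyA RNA-seq libraries from 3 established human kidney lines. A704 and CAKI-1 are labelled as cancer lines, and HK2 as a normal one; it is an immortalised line derived from proximal tubule. Each line was transfected at 25 nM, with harvest at 48 h, with 1 of 4 reagents: an siRNA against the phosphatase gene PTPN14 called PTPN14-1, a second one called PTPN14-2, an siRNA against LATS, or a non-targeting control. Each reagent gave 1 library per line. The siRNA numbers are those of the sample titles, since the descriptions number them the other way round. Whether LATS1, LATS2 or both were the LATS target is not stated in the labels.

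TAM receptors carry immunoglobulin-like and fibronectin type III domains outside the cell and a tyrosine kinase inside it. GAS6 and protein S, the product of PROS1, bind phosphatidylserine on dying cells or vesicles through a domain that needs vitamin K-dependent carboxylation, and bridge it to the receptor. MERTK and AXL are known for the clearance of dying cells and for damping innate inflammation, and AXL for growth, migration and drug resistance of carcinoma cells. AXL is also a known transcriptional target of YAP1, the coactivator that LATS kinases phosphorylate and PTPN14 binds, which act with DNA-binding factors of the TEAD family.

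The deposited values were read as FPKM, a unit taken from the values themselves: fragments per kilobase of gene scaled to sequencing depth, so levels can be set side by side between genes. Tests used log2(FPKM + 1), and log2 changes below are on that scale, which understates the change of low genes. From the whole-read steps of low single-exon genes, effective depth was estimated at 17.0 to 23.3 M reads per library. As a share of the line's own control, PTPN14 FPKM stood at 21.4 to 28.7% with PTPN14-1 and at 31.2 to 37.5% with PTPN14-2, and LATS1 stood at 22.5 to 30.7% with the LATS siRNA, against 98.2 to 122% for LATS2. All lines expressed KRT8 (136.72 FPKM or more), KRT18 (71.28 FPKM or more), CDH2 (24.6 FPKM or more) and the kidney factor PAX8 (19.36 FPKM or more). The epithelial cadherin CDH1 lay at 0.17 FPKM or less in CAKI-1 and HK2, and EPCAM at 0.51 FPKM or less in A704 and CAKI-1. Another kidney factor, PAX2, lay at 0.01 FPKM or less in CAKI-1 and HK2, and KRT19 at 1.06 to 1.7 FPKM in CAKI-1. Of 4 fibroblast markers 3 exceeded 1 FPKM in some library, with DCN highest, at 5.67 to 8.2 FPKM in HK2. Separate cultures are not stated in the labels, and no line had repeat libraries with the same reagent. The spread behind each p-value is what the model leaves among these 12 libraries. In the reagent model it holds uneven responses of the lines to the siRNAs and any spread between cultures or technical steps, which cannot be told apart. In bulk RNA, fewer cells expressing a gene and less RNA per cell cannot be told apart.

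On GRCh38 (GENCODE 29), AXL lies on chromosome 19 at 41219203 to 41261766 (plus strand), MERTK on chromosome 2 at 111898479 to 112029561 (plus), TYRO3 on chromosome 15 at 41557675 to 41583586 (plus) and GAS6 on chromosome 13 at 113820549 to 113864067 (minus). The span of GAS6, introns included, overlaps that of the antisense gene GAS6-AS1 over 25196 bases. The bases shared by their exons were not counted. The strand setting of the authors' counting is not given in the sources used here, so reads from any shared exons may not be separable. TYRO3 has a processed pseudogene, TYRO3P, on chromosome 15 at 76258986 to 76261690, which can share its reads. RefSeq (GRCh38.p14) lists 2 start sites for AXL, 2 for TYRO3 and 1 each for MERTK and GAS6, and a window of 250 bases before to 50 bases after each was searched on both strands for GGAATG, the core of the TEAD motif, and for TGANTCA, the AP-1 motif; the 2 motifs do not overlap. Both AXL windows are shown because AXL was the member that changed with an siRNA, with the TEAD letters in capitals (CATTCC is GGAATG on the other strand).
AXL, first start, chr19:41218973-41219272, plus strand: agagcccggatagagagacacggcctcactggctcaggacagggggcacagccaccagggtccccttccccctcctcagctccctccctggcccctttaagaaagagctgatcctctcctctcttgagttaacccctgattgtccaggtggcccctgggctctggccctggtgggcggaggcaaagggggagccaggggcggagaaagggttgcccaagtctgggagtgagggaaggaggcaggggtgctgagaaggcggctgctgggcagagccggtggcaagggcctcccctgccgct
AXL, second start, chr19:41226505-41226804, plus strand: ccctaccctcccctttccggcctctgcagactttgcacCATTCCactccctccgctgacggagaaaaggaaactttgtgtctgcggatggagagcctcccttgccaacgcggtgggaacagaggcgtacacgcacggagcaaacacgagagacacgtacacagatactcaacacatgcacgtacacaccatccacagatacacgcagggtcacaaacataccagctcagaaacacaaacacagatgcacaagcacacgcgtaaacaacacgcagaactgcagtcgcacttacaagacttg
The first AXL window holds neither motif. The second holds 1 TEAD match, at position -212 from the start site, a motif present in 14% of the 35116 windows of this length. Among the other members' windows, the first TYRO3 window holds 1 AP-1 match, at -220, a motif present in 7.71% of all windows, and those of MERTK and GAS6 hold neither. A match describes these letters only.

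AXL was by far the most abundant TAM receptor transcript in every library. In A704 it stood at 84.65 FPKM with PTPN14-1, 60.41 with PTPN14-2, 69.47 with the LATS siRNA and 58.48 with control siRNA. In CAKI-1 the values were 78.66, 63.45, 63.03 and 47.74 FPKM in the same order of reagents, and in HK2 they were 110.11, 85.75, 95.65 and 81.44 FPKM. The PTPN14-1 library was the highest and the control library the lowest in all 3 lines. Of the summed FPKM of the 3 receptors, AXL made up 95.2 to 95.6% in A704, 87.7 to 92.5% in CAKI-1 and 87.0 to 89.6% in HK2. Among 58 receptor tyrosine kinase genes AXL had rank 3 in all 4 A704 libraries, after MET, the hepatocyte growth factor receptor (213 ± 14.5 FPKM, SD, n = 4), and EGFR, the epidermal growth factor receptor (93.4 ± 8.62 FPKM). It had rank 2 after MET (245 ± 46.4 FPKM) in CAKI-1, ahead of RYK, a Wnt-binding receptor (36.7 ± 2.22 FPKM). In all 4 HK2 libraries AXL had rank 1, ahead of MET (73.1 ± 11.8 FPKM) and FGFR1, a fibroblast growth factor receptor (65.3 ± 9.08 FPKM).

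**Figure D1:**
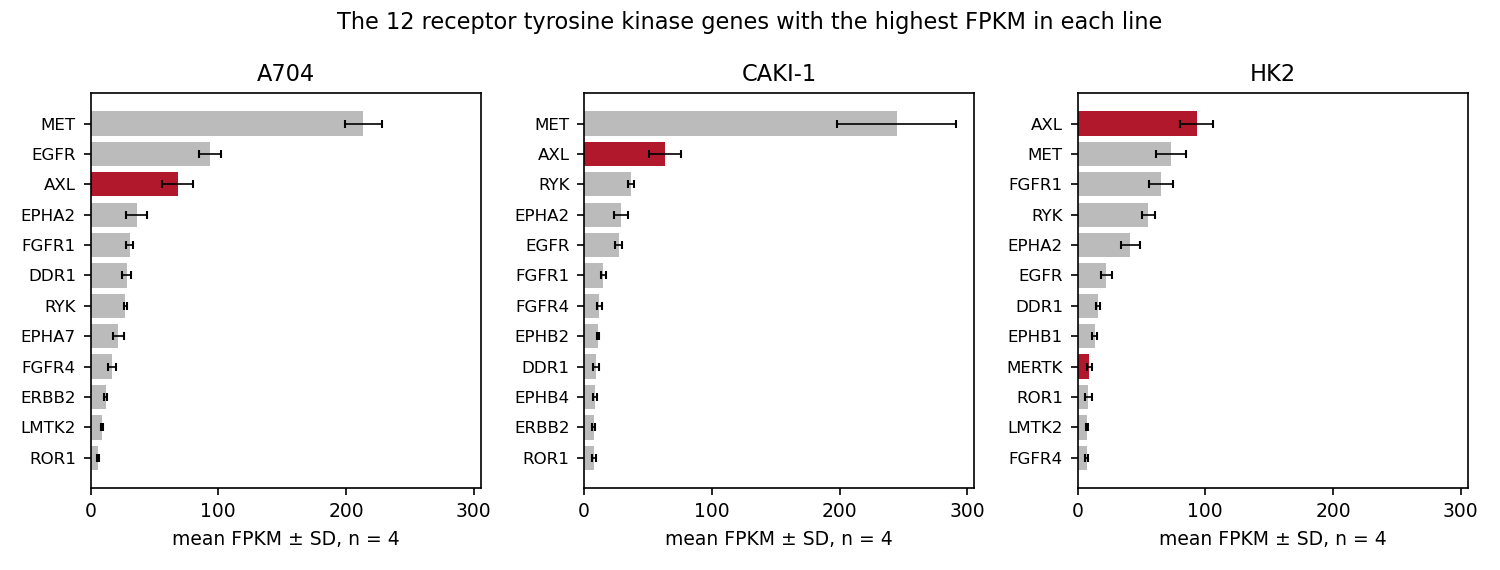
Mean FPKM with SD over the 4 libraries of each line for the 12 receptor tyrosine kinase genes with the highest means, with TAM receptors in red and the other genes in grey. AXL heads the HK2 panel, where MERTK (9.16 FPKM) is also drawn, and has rank 2 for CAKI-1 and rank 3 for A704.

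MERTK, the receptor most associated with engulfment, was the member that differed most between the lines. In A704 it stood at 0.42, 0.30, 0.44 and 0.41 FPKM with PTPN14-1, PTPN14-2, LATS and control siRNA, in CAKI-1 at 2.37, 1.87, 2.10 and 2.10 FPKM, and in HK2 at 11.85, 7.20, 8.23 and 9.35 FPKM. The A704 values, all under 1 FPKM, stand for about 27 to 44 reads per library at the estimated depth, and the ranges of the 3 lines did not overlap. MERTK therefore entered the tests through CAKI-1 and HK2. By mean FPKM it was 23.3-fold higher in HK2 than in A704 and 4.34-fold higher in HK2 than in CAKI-1.

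Macrophages are among the known sources of MERTK. The leukocyte gene PTPRC lay at 0.04 FPKM or less and the macrophage gene CD163 at 0.06 FPKM or less in every library. The list of 6 leukocyte and macrophage markers had 2 members above 1 FPKM anywhere, and its summed level of 18.0 to 200.5 FPKM was mostly CD68, a lysosomal protein gene that was highest in A704 (134.36 to 198.24 FPKM), where MERTK was lowest. The other member above 1 FPKM was ITGAM, at 1.42 to 2.02 FPKM in A704. CD14 lay at 0.49 FPKM or less in every library. In HK2, where MERTK was highest, CSF1R lay at 0.69 to 0.79 FPKM and ITGAM at 0.11 FPKM or less. The source of the MERTK reads was not tested.

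TYRO3, a receptor prominent in the nervous system, was low in all lines. Its FPKM was 3.45, 2.64, 2.87 and 2.57 in A704, 3.96, 4.09, 5.34 and 4.58 in CAKI-1 and 2.45, 2.72, 3.01 and 2.85 in HK2, with PTPN14-1, PTPN14-2, LATS and control siRNA in that order. Each CAKI-1 library lay above every library of A704 and HK2, whose ranges overlapped. By FPKM, which of the minor receptors was higher thus differed between lines: the ratio of MERTK to TYRO3 FPKM was 0.114 to 0.160 in A704, 0.393 to 0.599 in CAKI-1 and 2.65 to 4.84 in HK2. The level of this ratio depends on the gene lengths used, which cancel when lines are compared.

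GAS6, the ligand, was most abundant in A704, at 40.26, 35.43, 38.02 and 31.52 FPKM with PTPN14-1, PTPN14-2, LATS and control siRNA. In CAKI-1 it stood at 16.19, 11.17, 17.42 and 14.14 FPKM, and in HK2 at 16.66, 14.33, 15.62 and 15.57 FPKM. The A704 libraries lay above all others, and the ranges of CAKI-1 and HK2 overlapped. GAS6 reached 0.537 ± 0.0459 times the AXL FPKM in A704, 0.239 ± 0.0570 times in CAKI-1 and 0.168 ± 0.0167 times in HK2 (SD, n = 4 libraries with different reagents).

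**Figure D2:**
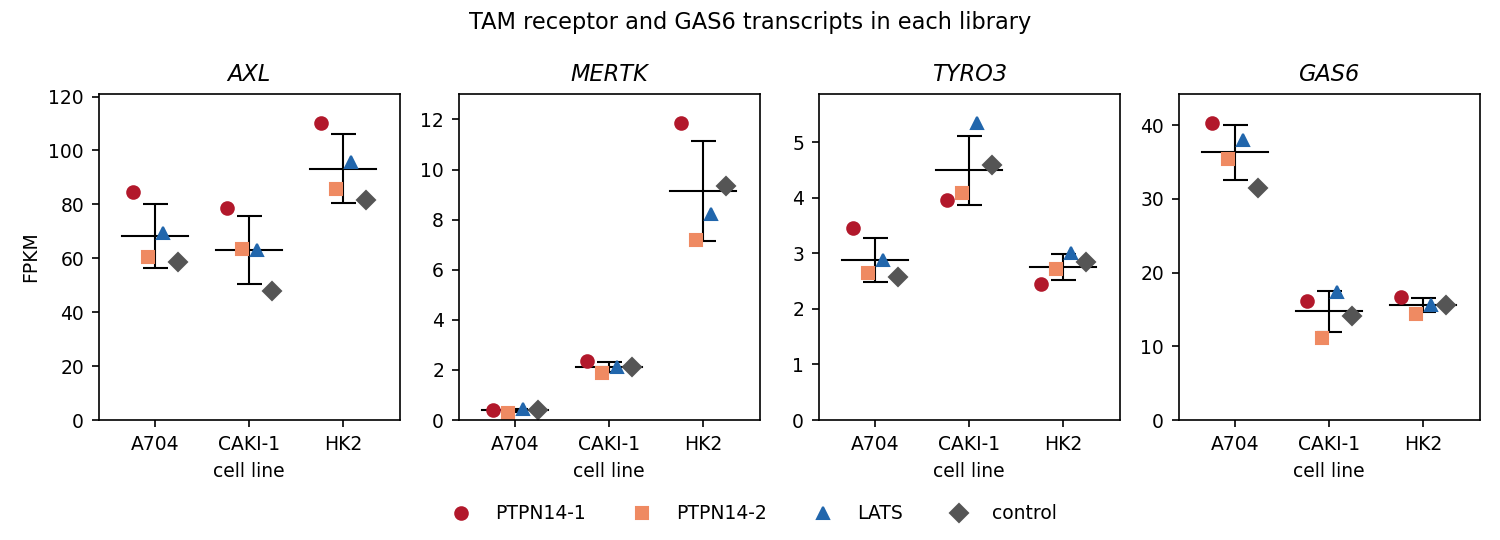
FPKM of each member in each library, by line and coloured by siRNA, with the mean and SD of the 4 libraries of a line in black. MERTK spans 0.30 to 11.85 FPKM across the lines, while the AXL value with PTPN14-1 stands above the other AXL values of its own line.

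The lines were compared over their 4 libraries with siRNA as a factor. The 4 libraries of a line had different siRNAs and were not repeat cultures with the same reagent. Of the 12276 genes tested, 84.6% passed between A704 and HK2 (40.6% higher, 44.0% lower), 81.7% between CAKI-1 and HK2 (40.4% higher, 41.3% lower) and 81.1% between A704 and CAKI-1 (39.3% higher, 41.8% lower). In each comparison 3 of 4 members passed, near the share of all genes. Between A704 and HK2, MERTK was lower by a log2 difference of -2.85 (SE 0.09, limma adjusted p = 3.42e-12), and AXL was lower at -0.45 (SE 0.07, limma adjusted p = 3.59e-05). MERTK passed the filter on low values only through CAKI-1 and HK2, where it was higher. Its tests against A704, here and below, are therefore tied to that selection. With no filter the MERTK difference between A704 and HK2 had a limma adjusted p of 2.11e-09. GAS6 was higher in A704 than in HK2 by 1.17 (SE 0.09, limma adjusted p = 2.02e-08), while TYRO3 had 0.04 with a 95% interval of -0.15 to 0.24. Between CAKI-1 and HK2, MERTK was lower at -1.69 (SE 0.09, limma adjusted p = 8.45e-10) and AXL lower at -0.57 (SE 0.07, limma adjusted p = 4.42e-06). TYRO3 was higher in CAKI-1 by 0.54 (SE 0.09, limma adjusted p = 9.35e-05), and GAS6 had -0.09 with an interval of -0.27 to 0.10. Between A704 and CAKI-1, MERTK and TYRO3 were lower in A704 at -1.16 (SE 0.09) and -0.50 (SE 0.09), and GAS6 was higher by 1.26 (SE 0.09), with limma adjusted p from 1.37e-08 to 2.06e-04. AXL had 0.12 between A704 and CAKI-1 (interval -0.03 to 0.26, limma adjusted p = 0.140), and passed after quantile normalisation at 0.19 (limma adjusted p = 0.0250). By these tests the order of AXL was HK2 above A704 and CAKI-1, that of MERTK HK2 above CAKI-1 above A704, that of TYRO3 CAKI-1 above A704 and HK2, and that of GAS6 A704 above CAKI-1 and HK2. The AXL ranges of A704 (58.48 to 84.65 FPKM) and HK2 (81.44 to 110.11 FPKM) overlapped. With a pseudocount of 0.1 the MERTK difference between A704 and HK2 was -4.22.

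The second TAM ligand gene, PROS1, showed a different pattern over the lines from GAS6. PROS1 stood at 62.64, 78.99, 71.82 and 53.62 FPKM in A704 with PTPN14-1, PTPN14-2, LATS and control siRNA, at 5.25, 4.65, 4.26 and 4.41 FPKM in CAKI-1, and at 60.05, 52.39, 54.00 and 44.00 FPKM in HK2. Every CAKI-1 library lay below all those of the other lines by a wide margin. PROS1 was lower in CAKI-1 than in HK2 at -3.24 (SE 0.09, limma adjusted p = 2.38e-12), higher in A704 than in CAKI-1 by 3.57 (SE 0.09, limma adjusted p = 8.10e-13), and higher in A704 than in HK2 by 0.33 (SE 0.09, limma adjusted p = 0.00436). The PROS1 ranges of A704 and HK2 overlapped. The ratio of PROS1 to GAS6 FPKM was 1.56 to 2.23 in A704, 0.244 to 0.416 in CAKI-1 and 2.83 to 3.66 in HK2, so GAS6 exceeded PROS1 in CAKI-1 and PROS1 exceeded GAS6 in A704 and HK2. LGALS3, a galectin gene and reported MERTK ligand, averaged 69.8 ± 6.17 FPKM in A704, 55.6 ± 2.92 FPKM in CAKI-1 and 65.9 ± 1.66 FPKM in HK2 (SD, n = 4).

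**Figure D3:**
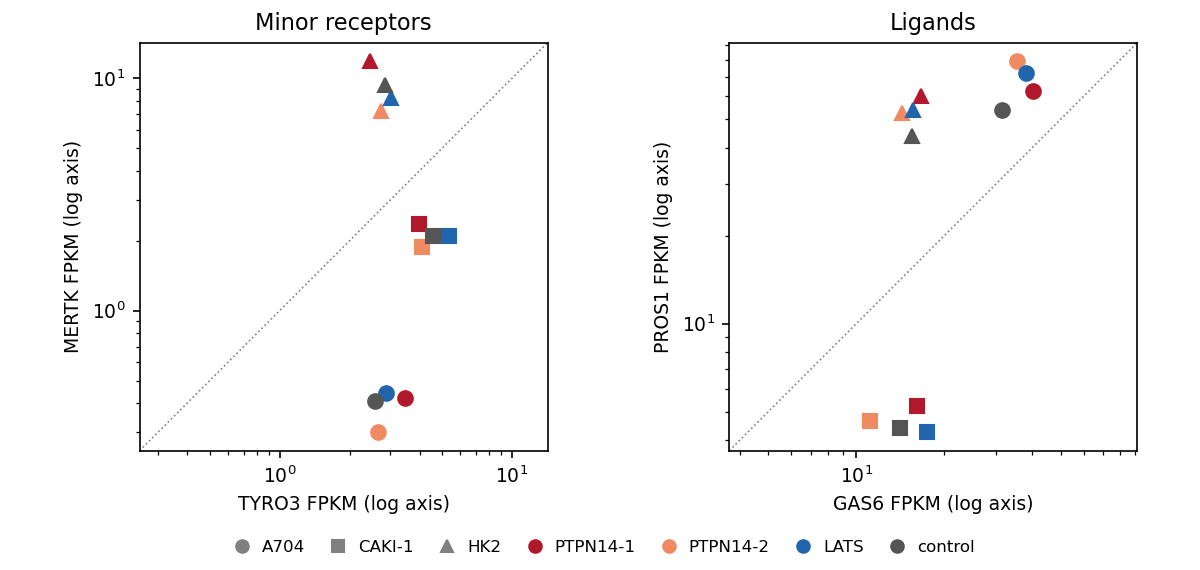
MERTK against TYRO3 (left) and PROS1 against GAS6 (right), in FPKM on log axes, with 1 point per library, symbols for lines, colours for siRNAs and a dotted line of equal FPKM. The 4 HK2 libraries lie above that line for the receptors, and the 4 CAKI-1 libraries lie below it for the ligands.

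The siRNA comparisons set each reagent against the control of the same line, with the line as a block. AXL rose with PTPN14-1 to 145, 165 and 135% of control in A704, CAKI-1 and HK2. Its log2 change was 0.56 (SE 0.08, 95% interval 0.38 to 0.73, n = 3 libraries against 3, limma adjusted p = 0.00246), and 43 of the 294 genes that rose had a larger change. AXL was the 1 of 4 members that passed, where 5.87% of the genes tested passed, 2.39% higher and 3.47% lower. Its call held in each of the 12 fits that left out 1 library (adjusted p up to 0.0197), and its estimate was 0.62 with limma adjusted p = 0.0512 without the HK2 line.

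With the same siRNA the other members had smaller estimates, none past the threshold. GAS6 was above control in 3 of 3 lines, at 128, 114 and 107% in A704, CAKI-1 and HK2, with a log2 change of 0.21 (interval -0.01 to 0.42, limma adjusted p = 0.240). MERTK was also above control in 3 of 3 lines, at 102, 113 and 127%, with 0.15 (interval -0.07 to 0.37, limma adjusted p = 0.417). In A704 its values were 0.42 against 0.41 FPKM. TYRO3 stood at 134, 86.5 and 86.0% of control in A704, CAKI-1 and HK2, and its log2 change was 0.00 (interval -0.23 to 0.23).

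With PTPN14-2, AXL stood at 103, 133 and 105% of control in A704, CAKI-1 and HK2. Its log2 change was 0.17 (SE 0.08, interval 0.00 to 0.35) and did not pass (limma adjusted p = 0.329). MERTK lay below control in 3 of 3 lines, at 73.2, 89.0 and 77.0% in A704, CAKI-1 and HK2, with -0.19 (interval -0.41 to 0.03, limma adjusted p = 0.412). The A704 values, 0.30 against 0.41 FPKM, rest on few reads (about 27 to 44 per library). GAS6 had -0.09 (interval -0.30 to 0.13) and TYRO3 -0.05 (interval -0.28 to 0.18). Of the members 0 passed by limma with PTPN14-2, where 1.35% of all genes did, 0.448% higher and 0.904% lower. At an unadjusted limma p under 0.05 there was 1 member, AXL, of 4, and 15% of all genes.

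Between the PTPN14 siRNAs, AXL, MERTK and GAS6 were each higher with PTPN14-1 in all 3 lines, MERTK in A704 at only 0.42 against 0.30 FPKM. AXL with PTPN14-1 stood at 124 to 140% of its level with PTPN14-2, a log2 difference of 0.38 (SE 0.08, interval 0.21 to 0.55, limma adjusted p = 0.00950). MERTK stood at 127 to 165%, with 0.34 (SE 0.10, interval 0.12 to 0.56, limma adjusted p = 0.0495), and GAS6 at 114 to 145%, with 0.29 (SE 0.10, interval 0.08 to 0.51, limma adjusted p = 0.0745). TYRO3 had 0.05 (interval -0.18 to 0.28). In this comparison 2 of 4 members passed, where 11.7% of all genes did, 5.52% higher with PTPN14-1 and 6.18% lower. The AXL call ended without A704 PTPN14-2 (limma adjusted p = 0.0514), without the A704 line (0.0823) and without the HK2 line (0.0838). The MERTK call held in 1 of the 12 fits that left out a library, that without A704 PTPN14-1 (limma adjusted p up to 0.207 in the others). PTPN14 itself was lower with PTPN14-1 than with PTPN14-2, at -0.44 (SE 0.11, limma adjusted p = 0.0213); the part of this difference in those of the members was not tested.

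**Figure D4:**
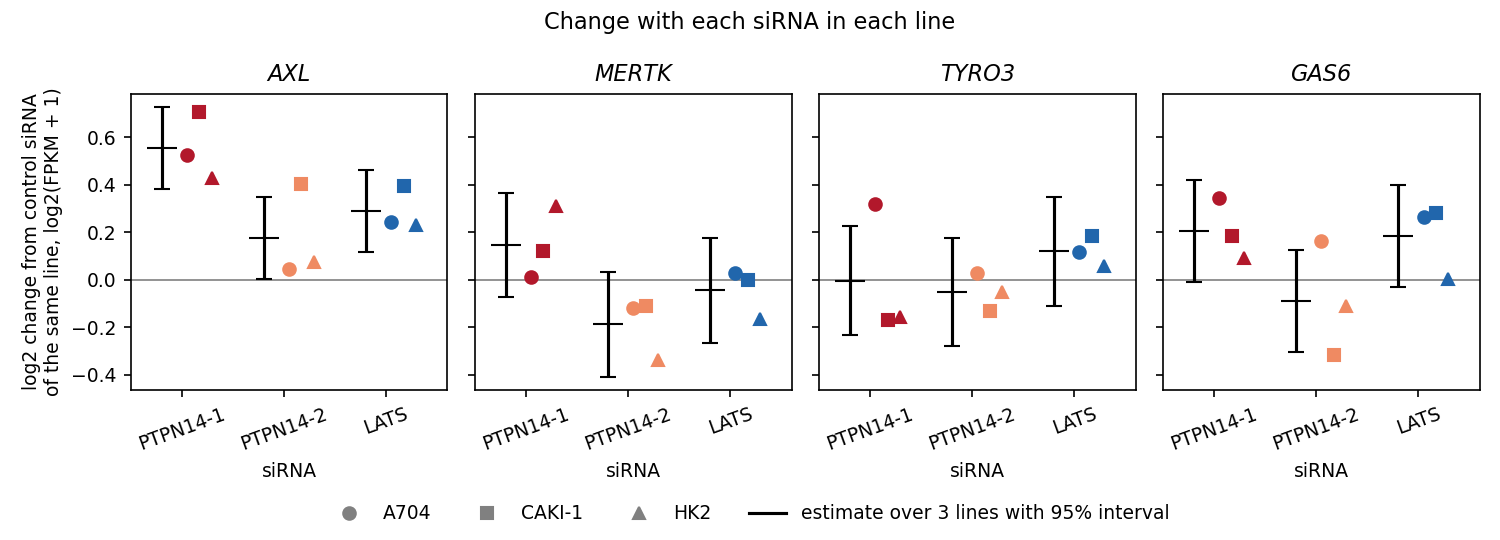
Log2 change from the control siRNA of the same line, on the log2(FPKM + 1) scale, for each siRNA and member. Symbols are the 3 lines and black bars the estimate over the lines with its 95% interval; for AXL the interval with PTPN14-1 runs from 0.38 to 0.73 and all 9 symbols lie above 0.

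With both PTPN14 siRNAs taken as 1 target, 6 libraries against 3, AXL had a log2 change of 0.36 (SE 0.12, interval 0.11 to 0.62) and did not pass (limma adjusted p = 0.350, unadjusted p = 0.00985). In that model 3 of 12276 genes passed (0.0244%; 0.00815% higher, 0.0163% lower), and the difference between the siRNAs is part of its spread. As the mean of the siRNAs in the model with 4 reagents, where 149 genes passed, AXL passed with the same change (limma adjusted p = 0.0294). MERTK, TYRO3 and GAS6 had -0.02, -0.03 and 0.06 as 1 target, with intervals from -0.29 to 0.25, -0.23 to 0.18 and -0.19 to 0.31.

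With the LATS siRNA, AXL lay above control in 3 of 3 lines, at 119, 132 and 117% of it in A704, CAKI-1 and HK2. Its log2 change was 0.29 (SE 0.08, interval 0.12 to 0.46), with an unadjusted limma p of 0.00315, and it did not pass over all genes (limma adjusted p = 0.245). Here 0.122% of all genes passed, 15 in number (0.0244% higher, 0.0978% lower), and 0 of the members. At an unadjusted limma p under 0.05 there was 1 member, AXL, of 4, and 11.2% of all genes. GAS6 stood at 121, 123 and 100% of control in A704, CAKI-1 and HK2 (0.18, interval -0.03 to 0.40) and TYRO3 at 112, 117 and 106% (0.12, interval -0.11 to 0.35). MERTK stood at 107, 100 and 88.0% (-0.05, interval -0.26 to 0.17). These comparisons share their control libraries, so values that lie on one side of control with several siRNAs are not independent.

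Whether the PTPN14 effect differed between lines was tested over the 9 groups of line and target. By limma's F-test 0 of 12276 genes passed (0%), and 106 had an unadjusted p under 0.05. Both PTPN14 libraries of A704 had TYRO3 above control (3.45 and 2.64, against 2.57 FPKM), while both of CAKI-1 (3.96 and 4.09, against 4.58 FPKM) and both of HK2 (2.45 and 2.72, against 2.85 FPKM) had it below. The TYRO3 effect was larger in A704 than in HK2 by 0.28 and than in CAKI-1 by 0.32, with an unadjusted p of 0.397 by limma's F-test. For AXL, MERTK and GAS6 the unadjusted p by limma's F-test was 0.679, 0.988 and 0.598. This test has 3 residual degrees of freedom, all from the difference between the PTPN14 siRNAs.

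Of 40 further genes of the TAM pathway, 36 were above the filter on low values. With PTPN14-1, 0 rose and 2 fell (5.56%, against 5.87% of all genes, with a median log2 change of 0.03 in the list and 0.00 over all genes). One was TNS2, a tensin that binds the AXL kinase domain, at 7.68, 2.45 and 4.03 FPKM in A704, CAKI-1 and HK2 with PTPN14-1, against 9.39, 4.10 and 5.80 FPKM with control (-0.42, SE 0.09, limma adjusted p = 0.0235). The other was VAV3, a guanine nucleotide exchange factor, at 9.50, 3.84 and 3.87 FPKM against 14.18, 5.14 and 5.35 FPKM with control (-0.42, SE 0.11, limma adjusted p = 0.0369). All 3 lines were below control for both genes. The TNS2 call ended without any 1 control library or without CAKI-1 or HK2 PTPN14-1 (limma adjusted p up to 0.107). The VAV3 call ended without any 1 control library, without A704 or HK2 PTPN14-1 or without A704 PTPN14-2 (limma adjusted p up to 0.164). With 1 line left out, the TNS2 call ended without HK2 or CAKI-1, and the VAV3 call without any of the lines.

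TNS2 was also the 1 gene of the list that fell with PTPN14-2 (2.78% of the list, against 1.35% of all genes; 0 rose), at 6.03, 2.96 and 4.07 FPKM in A704, CAKI-1 and HK2 (-0.45, SE 0.09, limma adjusted p = 0.0362). That call held in 5 of the 12 fits without 1 library (limma adjusted p up to 0.181), those without a PTPN14-1 library or without HK2 or CAKI-1 LATS, and ended without any 1 of the lines. With the LATS siRNA TNS2 was above control in all 3 lines, at 11.56, 4.84 and 6.15 FPKM. In the LATS comparison 0 of 36 genes passed by limma, with a list median of 0.07 against 0.00 over all genes. At an unadjusted limma p under 0.05 there were 11 of the 36 genes with PTPN14-1 (30.6%, against 22.8% of all genes), 12 with PTPN14-2 (33.3%, against 15%) and 2 with the LATS siRNA (5.56%, against 11.2%).

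Between the PTPN14 siRNAs 6 of 36 genes passed (16.7%, against 11.7% of all genes). Higher with PTPN14-1 were RAC1, the GTPase that drives engulfment (0.37, SE 0.08), SHC1, an adaptor of receptor kinases (0.39, SE 0.09), and ELMO2, a partner of the RAC1 activator DOCK1 (0.37, SE 0.10). Lower were VAV3 (-0.79, SE 0.11), MET (-0.44, SE 0.10) and PIK3R1, a regulatory subunit of PI3-kinase (-0.43, SE 0.12). VAV3 stood at 9.50, 3.84 and 3.87 FPKM with PTPN14-1 in A704, CAKI-1 and HK2, and at 16.87, 5.99 and 9.23 FPKM with PTPN14-2. The limma adjusted p ran from 6.43e-04 for VAV3 to 0.0298 for PIK3R1. The VAV3 difference passed in all 12 fits without 1 library. RAC1 passed in 11, failing without HK2 PTPN14-2, and ELMO2 in 9, failing without either A704 PTPN14 library or CAKI-1 PTPN14-2. MET and PIK3R1 passed in 8, both failing without CAKI-1 PTPN14-1, CAKI-1 PTPN14-2 or HK2 PTPN14-2, MET also without HK2 PTPN14-1 and PIK3R1 also without A704 PTPN14-1. SHC1 passed in 8, failing without A704 or HK2 PTPN14-1 or without HK2 or CAKI-1 PTPN14-2. With 1 line left out, VAV3 passed without each of the lines, and the other 5 genes failed without at least 2 of them.

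The genes that act on ligands and receptors before signalling did not pass against control. PROS1 was above control in 3 of 3 lines with PTPN14-1 (log2 change 0.29, SE 0.11, limma adjusted p = 0.129), in 3 of 3 with PTPN14-2 (0.29, limma adjusted p = 0.228) and in 2 of 3 with the LATS siRNA (0.22, limma adjusted p = 0.454), and with PTPN14-1 it passed without A704 PTPN14-1 (0.40, limma adjusted p = 0.0494). ADAM10 and ADAM17, proteases that shed AXL and MERTK from the cell surface, had 0.28 and 0.30 with PTPN14-1 (limma adjusted p = 0.0635 and 0.0685) and 0.19 and 0.21 with PTPN14-2. GGCX, the vitamin K-dependent carboxylase, had -0.02, 0.03 and 0.16 with PTPN14-1, PTPN14-2 and LATS siRNA.

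Between lines most of the list passed, as did most genes: 13 genes higher and 16 lower in A704 than in HK2 (80.6%), 17 and 15 in CAKI-1 against HK2 (88.9%) and 17 and 16 in A704 against CAKI-1 (91.7%). Among the smallest p were EGFR, MET and ADAM10, higher in A704 than in HK2 by 2.02, 1.55 and 0.79, and PLCG1, a phospholipase, NCK1, an adaptor, and CRK, an adaptor, lower at -1.44, -1.15 and -0.80. In CAKI-1 against HK2, after PROS1, they were TUB, the gene of the tubby protein and a reported MERTK ligand (1.35), MET (1.72), CRK (-1.27), SHC1 (1.46) and GRB2, an adaptor (0.71). In A704 against CAKI-1, after PROS1, they were NCK1 (-1.69), TUB (-1.23), EGFR (1.75), ITGAV, an integrin subunit (-1.03), and GRB2 (-0.95). The limma adjusted p of these differences was 1.52e-07 or less.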

How the data were processed

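FPKM values of 20979 entries were deposited by the authors as 1 table with 2 decimals, and sum to 344334 to 396360 per library. The unit was taken from the values (not whole, sums that differ between libraries, steps that scale with gene length), since neither the labels nor the header names it. Per the submitters' processing notes, the aligner was STAR (2.4.0g1) and the build GRCh38.p1; per the labels' protocols, the kit marks strand. Counter, annotation, strand setting and library scaling were not given in the sources used here. A filter kept the 12276 genes over FPKM 1 in 3 or more libraries, and log2(FPKM + 1) was fitted with limma 3.58.1 in R 4.3.3 (mean-variance trend, robust moderation, Benjamini-Hochberg adjustment over all genes kept, threshold 0.05). The reagent model had 4 reagents and cell line as a block (6 residual degrees of freedom) and gave the line contrasts too. The replicate number marks the line, so numbers pair libraries by line. Another model took both PTPN14 siRNAs as 1 target, and a model of 9 line and target groups gave the F-test. Depth was estimated from 47 to 80 single-exon genes per library, of which 74.1 to 91.2% lay on whole-read steps within the rounding of the table, against a median of 14.6 to 18.4% over all step sizes tried. Simulated data had 200 changed genes among 12276, with fold changes set on FPKM + 1. In them the PTPN14-1 contrast recovered 24.8% of 1.25-fold, 79.8% of 1.5-fold and 96.4% of 2-fold changes. The LATS contrast recovered 26.2, 75 and 96.8%, so most changes of 1.25-fold were missed. Recovery depends on how many genes change. In the real LATS contrast 15 genes passed, so its recovery there may be lower than in the simulation. Named genes are the members, siRNA targets, up to 6 pathway genes past the threshold with the smallest p, the 3 most abundant receptor kinases per line and the 5 genes most like each member, of which 1 is not reported here; PROS1, ADAM10, ADAM17, GGCX and LGALS3 outside it were named after their values were seen. The members and lists were chosen with earlier results of these data known. Alternatives were another pseudocount, no filter, quantile normalisation, no line block, and leaving out each library or line.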

Additional observations from a re-analysis of the deposited data

How the results depend on the processing

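Every called line difference of the members kept its direction and call with a pseudocount of 0.1, with no filter, after quantile normalisation and without any 1 library. In the control libraries alone, GAS6 between A704 and HK2 was 0.97, and AXL was -0.76 between CAKI-1 and HK2 and 0.29 between A704 and CAKI-1. After quantile normalisation AXL passed between A704 and CAKI-1 (0.19), and estimates near 0 changed sign: TYRO3 with PTPN14-1 (0.038), and MERTK (0.0083) and TYRO3 (0.0021) with both PTPN14 siRNAs as 1 target. With no filter (17167 genes), 355 genes passed with PTPN14-1, 60 with PTPN14-2, 3 with LATS, 1 with PTPN14 as 1 target and 2 in the test between lines, and MERTK between the PTPN14 siRNAs (0.34) did not. Of the 9 pathway calls in siRNA comparisons, 5 ended with no filter: TNS2 and VAV3 with PTPN14-1, TNS2 with PTPN14-2, and ELMO2 and PIK3R1 between the PTPN14 siRNAs (limma adjusted p 0.0550 to 0.0957). As the mean of the siRNAs in the reagent model, PTPN14 gave 149 calls and AXL 0.36. With no replicate block, so no cell line term, AXL with PTPN14-1 (0.56) and AXL (0.38) and MERTK (0.34) between the PTPN14 siRNAs did not pass, and 0 genes passed by limma in any siRNA comparison, with 10 to 119 at an unadjusted p under 0.05; all 9 pathway calls ended too.

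Without HK2, AXL with PTPN14-1 (0.62) and AXL (0.39) and MERTK (0.18) between the PTPN14 siRNAs did not pass. Signs turned for TYRO3 with PTPN14-1 (0.074) and with PTPN14 (0.011) and for MERTK with LATS (0.015), and 66, 24, 1, 428 and 0 genes passed with PTPN14-1, PTPN14-2, LATS, between the PTPN14 siRNAs and with PTPN14. Without A704, AXL (0.33) and MERTK (0.44) between the PTPN14 siRNAs did not pass, TYRO3 between them (-0.073) and GAS6 with PTPN14 (-0.038) turned sign, and 379, 94, 4 and 709 genes passed in the first 4 of these comparisons. Without CAKI-1, MERTK between the PTPN14 siRNAs (0.39) did not pass, TYRO3 with PTPN14-1 (0.080) and with PTPN14 (0.0345) and GAS6 with PTPN14-2 (0.026) turned sign, and 195, 16, 2, 548 and 0 genes passed. Of the 9 pathway calls, 7 ended without HK2, 6 without A704 and 7 without CAKI-1 (limma adjusted p 0.0544 to 0.294).

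Leaving out 1 library gave 202 to 833 calls with PTPN14-1, 34 to 254 with PTPN14-2, 3 to 20 with LATS, 744 to 1643 between the PTPN14 siRNAs and 1 to 7 with PTPN14. Between the PTPN14 siRNAs AXL ran from 0.33 to 0.45, MERTK from 0.21 to 0.43 and TYRO3 from -0.10 to 0.13. TYRO3 ran from -0.15 to 0.077 with PTPN14-1 and from -0.094 to 0.0083 with PTPN14, and between A704 and HK2 from -0.067 to 0.095. GAS6 ran from -0.18 to 0.039 with PTPN14-2, from -0.019 to 0.14 with PTPN14 and between CAKI-1 and HK2 from -0.16 to 0.0063. MERTK ran from -0.094 to 0.018 with LATS and from -0.11 to 0.052 with PTPN14. The cause of these changes was not tested.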

Other observations

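The genes whose pattern was most like that of each member were found by Pearson's r of log2(FPKM + 1) among 11552 genes with a mean FPKM over 1. The 12 libraries share lines, reagents and control libraries, so r is a description. Over all 12 libraries, where the lines dominate, the genes most like AXL were TNFAIP1, MAP2K3, PREP, AJUBA and PPP1R18, with r from 0.95 to 0.89. Those most like MERTK were TMCC3, PSMD5, ZNF625, BRPF1 and TEX10, with r from 0.997 to 0.994, those most like TYRO3 were FADS3, LIMK1, ZDHHC16, LMNA and KCTD21, from 0.97 to 0.96, and those most like GAS6 were HSPB8, TSPAN9, TMEM54, NFKBIE and PDLIM2, from 0.99 to 0.98.

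After the mean of each line was subtracted, other genes came first. This leaves the differences between the libraries of a line, in which siRNA effects and spread between single libraries cannot be told apart. Among the genes most like AXL were then CLNS1A, AMOTL2, GADD45B and IFFO2, with r from 0.96 to 0.94. MERTK was most like NUP98, CYB5B, DIP2B, GREM1 and DLC1 (0.95 to 0.91), TYRO3 most like TSTA3, SQSTM1, KIAA0930, PSMB10 and RNPEPL1 (0.96 to 0.93), and GAS6 most like CHPF, PI4K2A, LMAN2, NDUFA11 and MICALL1 (0.96 to 0.94).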
